A study of Mus musculus with 45 samples.

Results

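The mouse genes described here are 250 zinc finger genes whose symbol is Zfp followed by a number of 3 digits. They were chosen by their level in the homogenate of water-drinking mice, as all symbols of that form with a mean of at least 3 CPM there (CPM, the count of a gene scaled by the total of its library). Of 288 symbols of that form among the 24421 genes counted, 250 met the threshold and 38 did not, 3 of them with 0 counts in every one of those libraries. Just inside the threshold lay Zfp647 with 3.09 CPM, Zfp708 with 3.29 and Zfp493 with 3.38. Just outside it lay Zfp300 with 2.98 CPM, Zfp184 with 2.87 and Zfp607 with 2.77. Because the homogenates of water mice chose the genes, results are read only from comparisons that leave those libraries out. Counts of calls in the other comparisons are given as descriptions, beside those of all genes, and nothing is read from them.

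A C2H2 zinc finger is a short fold in which a pair of cysteines and a pair of histidines hold a zinc ion, and arrays of such fingers read DNA one short stretch after another. Many of the proteins also carry a KRAB box, which recruits the corepressor TRIM28 (KAP1) and, through it, the histone methyltransferase SETDB1, heterochromatin proteins and the NuRD deacetylase complex. KRAB zinc finger genes are best known for silencing retrotransposons and for keeping the methylation marks of imprinted genes, and they multiplied in mammals by local duplication. Zinc finger genes without a KRAB box include factors of neural and glial development, RNA-binding proteins and proteins of ribosome quality control.

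The tissue was medial prefrontal cortex from C57BL/6J mice, and poly(A) RNA of 2 fractions of it was sequenced. The homogenate was 5% of the minced tissue, frozen without further dissociation. The isolated fraction was the remainder after enzymatic dissociation, myelin removal and capture on beads against ACSA2, an astrocyte surface antigen. Ethanol mice could choose a 15% ethanol solution every other day for 72 days and were killed 24 h after their last drinking day. Water mice had only water for 72 days. The groups were the isolated fraction of 10 water mice, the homogenate of 12 water mice, the isolated fraction of 10 ethanol mice and the homogenate of 12 ethanol mice, all of one strain and with no engineered allele named. Sex and age were not given in the labels used here. Of the 24 mice, 20 gave both fractions.

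The finger itself is shown first, as the coding bases of the first matched finger in 4 genes that moved far between the fractions (values below). The genes lie at chr2:170108643-170148103 on the minus strand, chr2:174643534-174710832 on the plus strand, chr7:12834761-12850577 on the plus strand and chr7:140807449-140822178 on the minus strand of GRCm38 (mm10), and the bases come from the GENCODE M21 transcripts. Capitals mark the codons of the paired cysteines and histidines, and the bases between them include those for the residues that contact DNA.
Zfp217: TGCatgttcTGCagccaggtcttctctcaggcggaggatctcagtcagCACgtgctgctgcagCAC
Zfp831: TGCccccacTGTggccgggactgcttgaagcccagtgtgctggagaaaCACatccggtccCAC
Zfp110: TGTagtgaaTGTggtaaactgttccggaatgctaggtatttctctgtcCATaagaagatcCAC
Zfp941: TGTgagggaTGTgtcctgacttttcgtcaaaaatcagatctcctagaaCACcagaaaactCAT
Zfp217 has 8 matched fingers in 1041 residues and Zfp831 has 2 in 1628, and neither has a KRAB box. Zfp110 has 5 fingers in 832 residues and Zfp941 has 9 in 674, both with a KRAB box. A match was 2 to 4 residues between the cysteines, 12 between the second cysteine and the first histidine and 3 to 5 between the histidines, and where several cysteines met the spacing the nearest to the second was marked.

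By sequence the 250 genes fell into 132 with a KRAB box, 110 with fingers and no KRAB box, 5 with no finger of that spacing and 3 with no translated protein to classify. The 5 with neither a KRAB box nor a match were Zfp330, Zfp365, Zfp503, Zfp703 and Zfp839. The 3 without a protein were Zfp191, whose symbol is not in that annotation, and the transcribed pseudogenes Zfp783 and Zfp939. KRAB genes carried a median of 12 matched fingers (0 to 33, with 0 in Zfp781 and Zfp935) and the other finger genes a median of 7.5 (1 to 36). Zfp142 had the 36.

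Promoter windows of 300 bases (250 before and 50 after the annotated start, RefSeq, GRCm38.p6) were found for 205 of the 250 genes. The windows of Zfp217 and Zfp365 are shown because these genes were among the furthest apart in opposite directions between the fractions. They span chr2:170142626-170142925 and chr10:67912613-67912912, both on the minus strand, and are written in the sense of the gene. For Zfp217 the table holds 2 windows, of which the first is shown. Capitals mark GC boxes, the motif GGGCGG searched on both strands.
Zfp217: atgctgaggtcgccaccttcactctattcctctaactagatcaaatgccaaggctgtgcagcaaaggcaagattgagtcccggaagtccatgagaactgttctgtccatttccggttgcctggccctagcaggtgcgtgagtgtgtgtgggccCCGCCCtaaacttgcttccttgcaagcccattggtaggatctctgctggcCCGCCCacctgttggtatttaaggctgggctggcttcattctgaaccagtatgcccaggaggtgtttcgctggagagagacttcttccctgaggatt
Zfp365: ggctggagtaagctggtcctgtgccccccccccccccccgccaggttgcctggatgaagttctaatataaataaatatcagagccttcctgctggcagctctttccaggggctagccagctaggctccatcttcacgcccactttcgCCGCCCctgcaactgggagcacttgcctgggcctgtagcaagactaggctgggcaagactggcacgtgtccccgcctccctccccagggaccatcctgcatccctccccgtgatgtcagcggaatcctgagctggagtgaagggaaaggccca
The Zfp217 window held 2 GC boxes and the Zfp365 window 1. A GC box was present in 40.2% of 117 KRAB gene windows and in 60.98% of 82 windows of finger genes without a KRAB box. The share was 64.9% over all genes tested between the fractions of ethanol mice and 35.9% over all 27025 windows. These matches describe letters in the windows and were not tied to binding.

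Total gene counts were 3973666 to 7837038 per water homogenate, 3673811 to 9109247 per ethanol homogenate, 504492 to 2938854 per water isolated library and 1028493 to 3248804 per ethanol isolated library, with 5 water isolated libraries under 1000000. A count of 0 in one library therefore allows up to 0.923 to 5.95 CPM in the isolated fraction and 0.329 to 0.817 CPM in the homogenate (3 counts, counting error only). The fractions differed in cell type markers. In ethanol mice the summed level of 20 neuron markers was 607 to 1677 CPM in isolated libraries and 19202 to 22687 CPM in homogenates, with 20 of 20 lower by edgeR and none at 0 in a whole group. The 20 astrocyte markers summed to 11184 to 20774 and 10306 to 14017 CPM, ranges that overlapped (16 higher, 3 lower), the 15 microglia markers to 6824 to 10943 and 648 to 889.5 CPM (15 higher) and the 14 oligodendrocyte markers to 16742 to 29432 and 1107 to 7502 CPM (14 higher). The 12 endothelial markers summed to 1056 to 2596 and 361 to 803 CPM (12 higher), the 10 mural markers to 1712 to 3419 and 179.6 to 475 CPM (10 higher) and the 9 oligodendrocyte precursor markers to 1323 to 2071 and 677 to 914 CPM (4 higher, 3 lower). The 20 immediate early genes, which respond to tissue handling, summed to 16172 to 25242 and 1520.5 to 2658 CPM (17 higher, 3 lower). Each comparison of fractions below moves with all of these lists, and their part in it was not tested. In bulk RNA, fewer cells of a type and less RNA per cell cannot be told apart.

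Levels are compared between genes per kilobase of merged exon. In the ethanol homogenate the KRAB genes had a median level of 2.90 CPM per kb, the finger genes without a KRAB box 6.24, and all genes at the same minimum level 6.86. In the ethanol isolated fraction the first pair of medians was 2.60 and 6.64 CPM per kb. Zfp365, whose product (also called DBZ) is a brain protein that binds DISC1, had the highest mean level in the homogenate, 183 (125 to 209.7) CPM per kb over 12 libraries. Zfp106, an RNA-binding protein needed by motor neurons, followed with 53.7 (47.3 to 63.5) CPM per kb, and its range did not overlap that of Zfp365. Then came Zfp445, a KRAB protein that maintains imprints, with 32.7 (28.3 to 36.997), Zfp706 with 30.99 (26.6 to 38.7) and Zfp771 with 26.2 (20.1 to 31.3) CPM per kb, whose ranges overlapped one another. The isolated fraction had another order. Zfp703, a transcriptional cofactor of the NET family, led with 50.6 (30.7 to 66.98) CPM per kb over 10 libraries, ahead of the KRAB gene Zfp869 with 44.2 (38.7 to 51.8). Zfp740 with 35.2 (27.3 to 40.3), Zfp706 with 28.8 (23.2 to 35.97) and Zfp598, the ubiquitin ligase that senses collided ribosomes, with 28.4 (24.04 to 31.4) CPM per kb followed, and neighbouring ranges in this order overlapped.

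The summed level of the 250 genes was 7366, 7757 and 8206 CPM (lowest, median, highest of 10) in the ethanol isolated fraction and 8498, 8916 and 9178 CPM in the 12 ethanol homogenates. The groups did not overlap. Without Zfp365, the most abundant of them, the sums were 7302, 7665 and 8140.2 CPM against 7529, 7935 and 8174 CPM, and the groups overlapped. This second sum was added after the values were seen. The 132 KRAB genes summed to a median of 2253 CPM (2096 to 2452) isolated and 2553 CPM (2314 to 2628) in homogenate, with overlapping ranges. The 110 finger genes without a KRAB box summed to 5112 CPM (4895 to 5408) and 5239 CPM (5032 to 5405), also overlapping. In water mice the 250 genes summed to 6679 to 8283 CPM isolated and 8421 to 9836 CPM in homogenate.

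**Figure D1:**
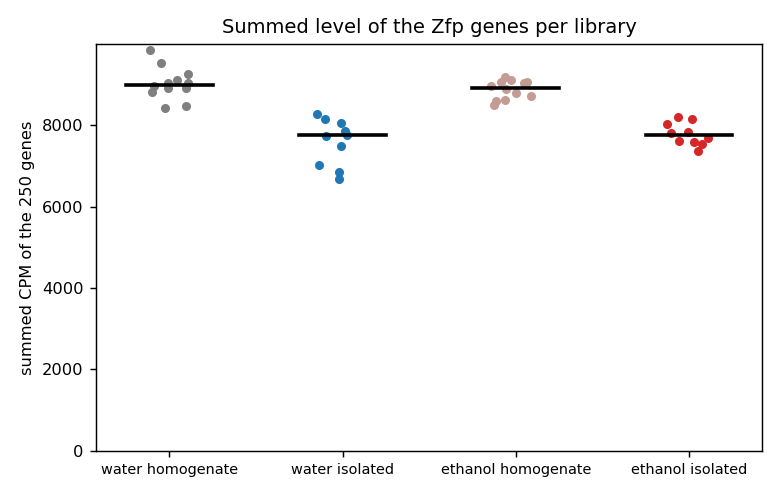
Summed CPM of the 250 Zfp genes (vertical axis, from 0) in each library, by group (horizontal axis); points are libraries and bars are medians. The ethanol isolated libraries lay between 7366 and 8206 CPM, all below the ethanol homogenates.

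Which of these genes differed between bead-isolated cells and whole tissue was asked in ethanol mice, whose libraries had no part in choosing the genes. The rule did use the homogenate of other mice, and a minimum level there keeps out genes found only in isolated cells. The balance of higher and lower calls is therefore not independent of the rule, and genes of the same minimum level are given beside it. By the quasi-likelihood test of edgeR (called at a false discovery rate, FDR, under 0.05 over all genes tested), 66 of 249 genes were higher in the isolated fraction (26.5%, beside 39.8% of all 13489 genes tested) and 109 were lower (43.8%, beside 41.9%). The other 74 did not pass, and Zfp618 was too low to be tested (0 to 2.13 CPM isolated, 1.09 to 7.22 CPM homogenate). The median log2 fold change was -0.18 over the tested Zfp genes and -0.04 over all genes. Among the 12807 tested genes that also averaged at least 3 CPM in water homogenates, 37.6% were higher and 43.8% lower, with a median of -0.10. Changes of at least 2-fold were called for 17 higher and 36 lower genes of 249. Over all 13489 genes tested the counts were 2746 higher and 3100 lower (43.3% in both directions). At the same minimum level they were 2244 and 3070 of 12807.

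By protein class the counts were as follows. Of 132 KRAB genes, 23 were higher (17.4%) and 63 lower (47.7%), and their median log2 fold change was -0.22. Of 109 finger genes without a KRAB box, 39 were higher and 45 lower, with a median of 0.00. Under upper-quartile scaling, which moved the median of all genes by 0.10, the counts became 30 higher and 56 lower KRAB genes and 47 higher and 39 lower genes without a KRAB box, so the more frequent direction in the second class turned with the scaling. Over all genes it turned too, from 5374 higher and 5646 lower to 5828 and 5174. The difference between the classes was not tested. Of the 5 genes with neither box nor matched finger, 3 were higher (Zfp503, Zfp703 and Zfp839), Zfp365 was lower and Zfp330 did not pass. At the same minimum level, 38 Zbtb genes counted 11 higher and 17 lower, 20 Zscan and Zkscan genes 7 and 7, and 47 Zfp genes of 1 or 2 digits 9 and 27.

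**Figure D2:**
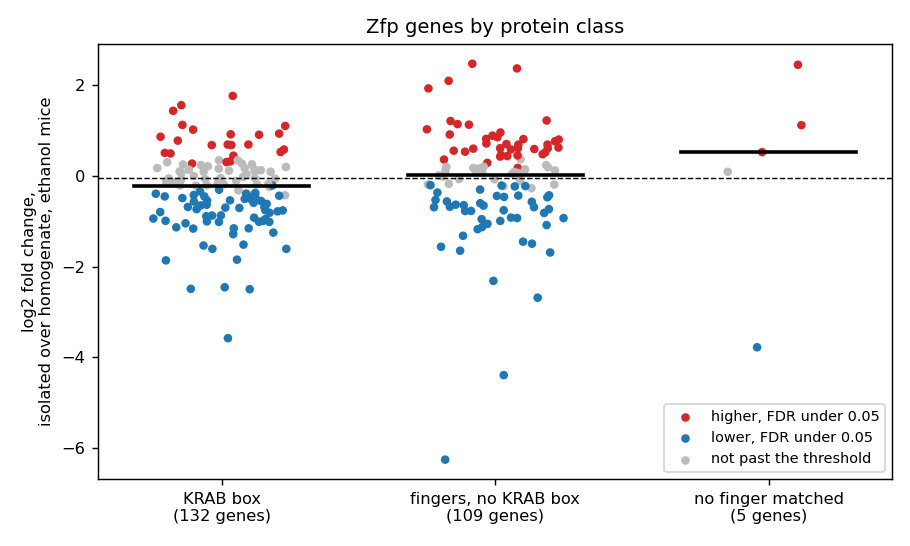
Log2 fold change of each gene, isolated fraction over homogenate in ethanol mice (vertical axis), by protein class (horizontal axis). Zfp618, which was not tested, and Zfp191, Zfp783 and Zfp939, which have no class, are not drawn. Points are genes, coloured by edgeR call, solid bars are class medians and the dashed line is the median of all genes tested, -0.04. The median of the KRAB class is -0.22 and single genes reach -6.25 and 2.46.

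Zfp217 rose furthest in the isolated fraction. It binds corepressor complexes with CtBP, and its human homologue is an amplified breast cancer gene. Its lowest, median and highest levels were 36.2, 50.95 and 61.7 CPM in the isolated libraries and 5.04, 8.72 and 12.7 CPM in the homogenates, a log2 fold change of 2.46 ± 0.12 (SE, edgeR FDR 7.47e-17). Zfp503 (Nolz1), a transcriptional repressor known from striatal development, had 16.1, 23.2 and 29.1 CPM in the isolated libraries and 2.62, 3.71 and 5.29 CPM in the homogenates and rose by 2.44 ± 0.13 (SE, edgeR FDR 8.2e-16). Zfp691 had 28.4, 39.1 and 49.1 CPM in the isolated libraries and 4.90, 6.99 and 9.47 CPM in the homogenates, a change of 2.36 ± 0.11 (SE, edgeR FDR 4.58e-17). For all 3 genes every isolated library lay above every homogenate. How many of all genes tested had groups without overlap was not counted, and 43.3% of them were called with a change of at least 2-fold. Separate groups, here and below, are therefore not read as particular to the Zfp genes. Zfp710 was more abundant, with 104, 156 and 225 CPM in the isolated libraries and 29.04, 39.6 and 43.3 CPM in the homogenates, again without overlap, and rose by 1.92 ± 0.10 (SE, edgeR FDR 1.22e-16). Zfp488, which works with Olig2 in oligodendrocyte differentiation, rose by 2.09 ± 0.19 (SE, edgeR FDR 7.06e-11) from a median of 3.77 to 15.8 CPM. Among KRAB genes Zfp110 (NRIF), which binds the neurotrophin receptor p75, rose furthest, with 43.4, 53.8 and 71.8 CPM in the isolated libraries and 11.5, 14.7 and 18.2 CPM in the homogenates and a change of 1.76 ± 0.10 (SE, edgeR FDR 1.01e-15). Zfp740, with a smaller change of 0.81 ± 0.06 (SE, edgeR FDR 3.13e-12), also had groups that did not overlap, 139 to 205 against 81.6 to 106 CPM.

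Among these genes the furthest falls were larger than the furthest rises, but the rule left out genes near 0 in water homogenates. Over all 13489 genes tested the extremes were -8.03 and 9.16. Zfp831 had 0, 0.805 and 4.86 CPM in the isolated libraries and 40.8, 66.97 and 79.04 CPM in the homogenates, a log2 fold change of -6.25 ± 0.25 (SE, edgeR FDR 5.58e-19). The isolated levels lie at or near what single libraries can detect. Zfp575 had 0, 0.532 and 2.73 CPM in the isolated libraries and 14.3, 17.1 and 18.7 CPM in the homogenates and changed by -4.39 ± 0.25 (SE, edgeR FDR 1.59e-15), with exons that overlap Ethe1 on the other strand. Zfp365 fell from the top of the homogenate ranking, with 61.3, 71.8 and 111 CPM in the isolated libraries and 651, 996 and 1091 CPM in the homogenates and a change of -3.78 ± 0.12 (SE, edgeR FDR 6.17e-21). None of these 3 had overlapping groups. The largest fall of a KRAB gene was that of Zfp941, with 1.94, 3.11 and 5.32 CPM in the isolated libraries and 25.6, 35.1 and 42.5 CPM in the homogenates and -3.58 ± 0.15 (SE, edgeR FDR 1.9e-18), also without overlap. Zfp711, on the X chromosome and known from human intellectual disability, changed by -2.69 ± 0.23 (SE, edgeR FDR 1.9e-11) between 10.5 to 20.1 CPM in homogenates and 0 to 5.45 CPM isolated. The KRAB gene Zfp811 changed by -2.46 ± 0.16 (SE, edgeR FDR 4.07e-14), Zfp827 by -1.69 ± 0.09 (SE, edgeR FDR 7.7e-16) and Zfp523 by -1.50 ± 0.08 (SE, edgeR FDR 5.19e-16), each with every isolated library below every homogenate.

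**Figure D3:**
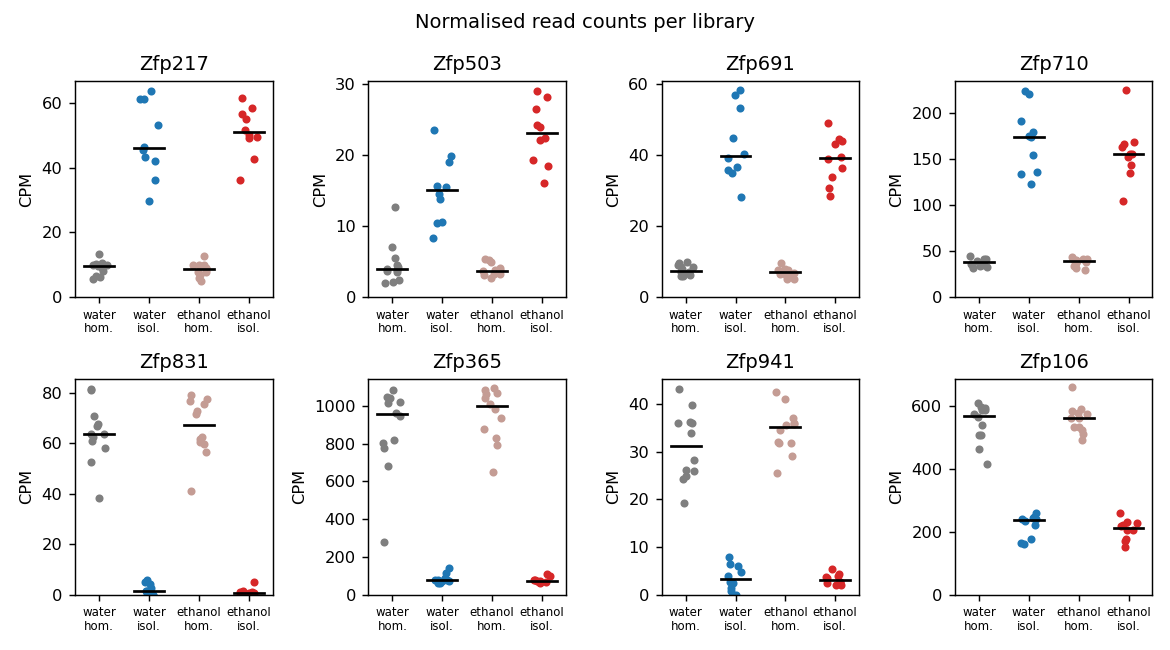
CPM (vertical axes, from 0, on a scale of its own for each gene) of 8 genes in every library of the 4 groups (horizontal axes; hom., homogenate; isol., isolated fraction); points are libraries and bars are medians. In the ethanol mice the isolated libraries lie above the homogenates for Zfp217, Zfp503, Zfp691 and Zfp710 and below them for Zfp831, Zfp365, Zfp941 and Zfp106, with no overlap.

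KRAB proteins with a known target moved in both directions or did not pass. Zfp445, which keeps imprinted methylation, fell between the homogenate and the isolated fraction, with 152, 173 and 195 CPM in the isolated libraries and 209.7, 244 and 274 CPM in the homogenates and a change of -0.62 ± 0.07 (SE, edgeR FDR 6.26e-09), and its groups did not overlap. Zfp568, which silences a placental promoter of Igf2, had 11.4 to 28.4 CPM isolated and 5.06 to 8.42 CPM in homogenate, without overlap, a rise of 1.43 ± 0.14 (SE, edgeR FDR 4.31e-10). Zfp189, a KRAB factor studied in the mouse prefrontal cortex for resilience to stress, changed by -0.93 ± 0.22 (SE, edgeR FDR 0.000419) with overlapping groups, 1.82 to 10.4 and 6.65 to 17.2 CPM. Zfp809, which silences murine leukaemia proviruses, had 11.4 to 18.2 and 9.99 to 15.6 CPM and a log2 fold change of 0.16 ± 0.11 (SE, edgeR FDR 0.245). Zfp746 (PARIS), a parkin substrate, had 0.09 ± 0.08 (SE, edgeR FDR 0.316). Both passed under upper-quartile scaling, at 0.26 and 0.19. Zfp638, which recruits silencing to unintegrated retroviral DNA and has no KRAB box, had 0.13 ± 0.08 (SE, edgeR FDR 0.122) and passed under upper-quartile scaling (0.22) and without the isolated library of mouse 59 (0.16).

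Among factors of neural and glial development, Zfp536, which restrains neuronal differentiation, rose by 1.21 ± 0.16 (SE, edgeR FDR 1.04e-07) with 36.3, 61.3 and 89.5 CPM in the isolated libraries and 17.8, 21.2 and 44.6 CPM in the homogenates, and the groups overlapped. Zfp423, a partner of EBF and SMAD factors in cerebellar development, fell, with 17.2, 24.2 and 30.1 CPM in the isolated libraries and 35.01, 44.9 and 92.1 CPM in the homogenates, a change of -1.32 ± 0.18 (SE, edgeR FDR 1.63e-07) and no overlap. Its paralogue Zfp521 had 17.3, 25.9 and 37.04 CPM in the isolated libraries and 10.6, 16.01 and 77.1 CPM in the homogenates, and the log2 fold change of 0.17 ± 0.30 (SE, edgeR FDR 0.614) did not pass. The single homogenate of ethanol mouse 62 set that top value, and without it the change was 0.53 (edgeR FDR 0.00308). It also passed by DESeq2, at 0.47. Zfp703, a relative of Zfp503, rose by 1.11 ± 0.12 (SE, edgeR FDR 1.7e-09). Zfp608 rose by 0.88 ± 0.11 (SE, edgeR FDR 2.15e-08), while its relative Zfp609, a partner of the cohesin loader, had -0.21 ± 0.09 (SE, edgeR FDR 0.0352), a call that was lost (edgeR FDR 0.0505 to 0.0735) on leaving out any of 8 single libraries, of the isolated fraction of mice 59, 60 and 75 and of the homogenate of mice 61, 63, 64, 65 and 77. Zfp516, a factor of brown fat, rose by 1.02 ± 0.13 (SE, edgeR FDR 4.54e-08) without overlap of the groups. Zfp335, whose loss causes microcephaly, had 0.19 ± 0.11 (SE, edgeR FDR 0.0976) and passed without the isolated library of mouse 59 (0.24) or the homogenate of mouse 64 (0.23) and under upper-quartile scaling (0.28). Zfp462, a chromatin factor of pluripotent cells with 33 matched fingers, fell, at -0.69 ± 0.13 (SE, edgeR FDR 1.83e-05), and Zfp704 fell, at -0.93 ± 0.12 (SE, edgeR FDR 5.92e-08). Zfp384 (CIZ), a nuclear matrix factor, rose by 0.76 ± 0.08 (SE, edgeR FDR 1.42e-09), Zfp652 by 0.62 ± 0.10 (SE, edgeR FDR 2e-06), and Zfp292 by 0.35 ± 0.08 (SE, edgeR FDR 0.000372).

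Other DNA-binding regulators split as well. Zfp148 (ZBP-89), which binds GC-rich promoters, fell, with 70.9 to 117 CPM isolated and 109.8 to 168 CPM in homogenate, at -0.68 ± 0.10 (SE, edgeR FDR 2.6e-07). Zfp281, its relative in pluripotent cells, had 0.11 ± 0.07 (SE, edgeR FDR 0.155) and did not pass except under upper-quartile scaling (0.21) and without the homogenate of mouse 77 (0.15). Zfp410, an activator of the NuRD gene Chd4, rose by 0.47 ± 0.09 (SE, edgeR FDR 2.84e-05). Zfp131 rose by 0.28 ± 0.07 (SE, edgeR FDR 0.00105) and Zfp277 by 0.60 ± 0.12 (SE, edgeR FDR 7.6e-05). Zfp644, a partner of the methyltransferase G9a, fell, at -0.37 ± 0.11 (SE, edgeR FDR 0.00320), as did Zfp407 at -0.54 ± 0.12 (SE, edgeR FDR 0.000277) and Zfp260 at -0.57 ± 0.08 (SE, edgeR FDR 1.61e-07). Zfp687, a partner of ZMYND8, had 0.16 ± 0.08 (SE, edgeR FDR 0.0577) and passed without any one of 3 libraries, the isolated ones of mice 59 (0.17) and 76 (0.20) and the homogenate of mouse 64 (0.18), and under upper-quartile scaling (0.25). Zfp574 had -0.22 ± 0.09 (SE, edgeR FDR 0.0310), and the call was lost (edgeR FDR 0.0559 to 0.0608) without the isolated library of mouse 61, 65 or 76 or the homogenate of mouse 62. The calls of Zfp574, Zfp410 and Zfp260 were also lost with thinned libraries.

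Proteins of this name also act on RNA and ribosomes. Zfp106 fell, with 152, 214 and 262 CPM in the isolated libraries and 493, 564 and 662 CPM in the homogenates, a log2 fold change of -1.57 ± 0.09 (SE, edgeR FDR 2.4e-15) and no overlap. Zfp598, the sensor of collided ribosomes, had 93.6 to 122 CPM isolated and 59.4 to 76.2 CPM in homogenate, without overlap, a rise of 0.58 ± 0.06 (SE, edgeR FDR 4.98e-10). Zfp622 and Zfp593, which act on the large ribosomal subunit, rose by 0.42 ± 0.11 (SE, edgeR FDR 0.00123) and 0.58 ± 0.16 (SE, edgeR FDR 0.00141). Zfp326, part of a complex that couples transcription and splicing, rose by 0.60 ± 0.09 (SE, edgeR FDR 5.7e-07), and Zfp830, a splicing protein with a single matched finger, by 0.68 ± 0.11 (SE, edgeR FDR 1.46e-06). Zfp207 (BuGZ), a spindle and splicing protein, had 0.17 ± 0.06 (SE, edgeR FDR 0.0142), a call that was lost when the filter on low counts was dropped (0.12) or with thinned libraries, which also cost Zfp622 and Zfp593 their calls. Zfp318, which sets IgD splicing in B cells, fell, at -0.66 ± 0.09 (SE, edgeR FDR 1.46e-07), and Zfp346 (JAZ), a binder of double-stranded RNA, fell, at -0.48 ± 0.09 (SE, edgeR FDR 1.78e-05), though after thinning of the libraries it had -0.22 (edgeR FDR 0.583). Zfp451, a SUMO ligase, had -0.08 ± 0.09 (SE, edgeR FDR 0.418), and the nucleolar Zfp330 had 0.08 ± 0.14 (SE, edgeR FDR 0.567). Zfp706, a small protein of 76 residues, had -0.23 ± 0.07 (SE, edgeR FDR 0.00296), a call lost under upper-quartile scaling (-0.13, edgeR FDR 0.0895), and Zfp771 had -0.78 ± 0.10 (SE, edgeR FDR 6.35e-08). The KRAB gene Zfp869 rose by 0.90 ± 0.07 (SE, edgeR FDR 4.7e-12), with 61.5 to 82.4 CPM isolated against 28.6 to 39.2 CPM.

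Of the 249 genes with a position, 159 lay in 35 clusters of neighbours within 1 Mb and 90 lay alone. Chromosome 7 carried 65 (35 with a KRAB box), chromosome 17 carried 26 (22 with one) and chromosome 8 carried 20. The counts of calls per cluster stand beside 39.8% higher and 41.9% lower of all 13489 genes tested. The largest cluster, chr17:21008903-23564238, held 11 genes, all with a KRAB box, of which 3 were higher and 2 lower. Its median log2 fold change was -0.05 (-0.77 to 0.68). In it Zfp229 rose by 0.68 ± 0.21 (SE, edgeR FDR 0.00392) and Zfp943 by 0.31 ± 0.10 (SE, edgeR FDR 0.00727), and Zfp942 fell, at -0.44 ± 0.13 (SE, edgeR FDR 0.00233). The calls of Zfp943 and Zfp942 were lost with thinned libraries. Zfp160, Zfp948 and Zfp760 in the same cluster did not pass, at -0.19 ± 0.14, -0.06 ± 0.15 and -0.05 ± 0.13 (edgeR FDR 0.195, 0.725 and 0.707). A cluster of 10 at chr7:24081924-25227507, picked from the 35 after its values were seen, had 0 higher and 8 lower, with a median of -1.09 (-4.39 to -0.14). Its 8 lower genes were Zfp108, Zfp109, Zfp112 and Zfp235 with a KRAB box and Zfp180, Zfp428, Zfp574 and Zfp575 without one. Zfp180 there had 36.3, 44.04 and 51.5 CPM in the isolated libraries and 72.3, 88.4 and 109 CPM in the homogenates, a change of -1.13 ± 0.09 (SE, edgeR FDR 1.06e-12), and Zfp428 had -1.45 ± 0.14 (SE, edgeR FDR 1.72e-10), both without overlap. Zfp111 and Zfp526 did not pass, at -0.14 ± 0.11 and -0.23 ± 0.13 (edgeR FDR 0.234 and 0.0903).

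Some of these genes share sequence, so that their reads could be split between copies or left out. Windows of 100 bases found in another gene's transcripts made up at least 5% of the transcript in 13 genes. The shares were 92.4% in Zfp781, 75.5% in Zfp433, 68.3% in Zfp960 and 31.7% in Zfp617. Zfp442 and Zfp937, both on chromosome 2, share with each other a run of 271 bases, whose first 100 are shown to make plain how alike such copies are, with no capitals.
Zfp442 and Zfp937, shared: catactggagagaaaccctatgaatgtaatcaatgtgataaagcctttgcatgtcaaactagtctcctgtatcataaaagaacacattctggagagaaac
The counts of such genes are uncertain, and their log2 fold changes are given with the SE and edgeR FDR. Zfp781 (0.68 ± 0.14, FDR 7.33e-05) and Zfp960 (0.67 ± 0.21, FDR 0.00403) were called higher. Zfp433 (0.25 ± 0.18, FDR 0.196), Zfp442 (0.24 ± 0.25, FDR 0.372) and Zfp617 (-0.19 ± 0.11, FDR 0.124) did not pass, and Zfp617 passed without the isolated library of mouse 66 (-0.29) and by DESeq2 (-0.24). Zfp937 was lower (-0.66 ± 0.13, FDR 4.95e-05; not called with thinned libraries), as were Zfp932 (-0.79 ± 0.11, FDR 1.28e-07) and Zfp697 (-2.32 ± 0.17, FDR 6.75e-13). Zfp747 (1.12 ± 0.12, FDR 3.98e-09) and Zfp764 (1.09 ± 0.18, FDR 2.38e-06), which both share bases with 9130019O22Rik, were higher, and Zfp825 (0.11 ± 0.20) and Zfp931 (-0.08 ± 0.19) did not pass. The 13th was Zfp488, at 6.95%. Exons overlapped those of another gene on the opposite strand in 29 genes and on the same strand in 8, and no source used here gives the strand setting of the counting. Zfp575, Zfp335 (with Pcif1) and Zfp319 (with Tepp) are among the 29, and the counts of such genes are uncertain too.

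The corepressor machinery that KRAB proteins recruit was read from a list of 23 genes. Of these, 15 were higher in the isolated fraction of ethanol mice and 7 lower, beside 39.8% higher and 41.9% lower of all 13489 genes tested. The median log2 fold change of the list was 0.28 beside -0.04 over all genes. Trim28, the KRAB-binding corepressor itself, had 159, 189.7 and 209 CPM isolated and 91.5, 109.9 and 120.2 CPM in homogenate, a rise of 0.61 ± 0.06 (SE, edgeR FDR 2.92e-10), without overlap. Setdb1, its histone methyltransferase, had 47.9, 73.4 and 101 CPM isolated and 48.9, 59.2 and 67.9 CPM in homogenate, at 0.23 ± 0.10 (SE, edgeR FDR 0.0364), with overlap. The NuRD remodellers moved apart. Chd3 had 91.7, 121 and 149 CPM isolated and 643, 802 and 1029.7 CPM in homogenate, a change of -2.84 ± 0.11 (SE, edgeR FDR 1.73e-19), and Chd4 had 507, 649 and 768 CPM isolated and 211, 245 and 267 CPM in homogenate, a change of 1.30 ± 0.09 (SE, edgeR FDR 1.08e-13). Neither pair of groups overlapped. The NuRD subunits Mta2 and Hdac1 rose by 1.22 ± 0.06 (SE, edgeR FDR 1.87e-16) and 1.42 ± 0.11 (SE, edgeR FDR 4.74e-12). Rbbp4 rose by 0.39 ± 0.06 (SE, edgeR FDR 1.52e-06). Hdac2 fell, at -0.40 ± 0.09 (SE, edgeR FDR 0.000152), as did Rbbp7 at -0.54 ± 0.08 (SE, edgeR FDR 5.52e-07). Mta1 did not pass, at 0.04 ± 0.06 (SE, edgeR FDR 0.560). Of the heterochromatin protein genes, Cbx5 fell, at -1.18 ± 0.10 (SE, edgeR FDR 5.2e-12). Cbx1 and Cbx3 rose, by 0.39 ± 0.10 and 0.45 ± 0.10 (SE, edgeR FDR 0.00124 and 0.000129). Trim28 and Setdb1 are named as the best known partners and were not among the 4 of lowest p. Nor were Rbbp4, Hdac2, Rbbp7, Mta1 and the Cbx genes, which were added after their values were seen. Of the HUSH complex, which silences transposons together with SETDB1, Mphosph8 fell, at -0.69 ± 0.09 (SE, edgeR FDR 1.41e-07), Fam208a (TASOR) rose by 0.39 ± 0.08 (SE, edgeR FDR 6.26e-05), and Morc2a at 0.08 ± 0.06 (SE, edgeR FDR 0.249) and Pphln1 at 0.08 ± 0.08 (SE, edgeR FDR 0.360) did not pass except under upper-quartile scaling (both 0.18).

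In water mice the same fractions were compared as a description, since their homogenates chose the genes. There 61 of 249 genes were higher in the isolated fraction and 110 lower, beside 37.2% and 40.3% of all 13434 genes tested. The log2 fold change was 2.35 ± 0.14 for Zfp217, 2.37 ± 0.13 for Zfp691, 2.10 ± 0.10 for Zfp710, 1.67 ± 0.26 for Zfp503, -3.51 ± 0.21 for Zfp365, -3.29 ± 0.26 for Zfp941 and -5.56 ± 0.30 for Zfp831 (each with its SE). The water and ethanol libraries come from separate mice handled by one protocol. The KRAB gene Zfp599 had 0 counts in every water isolated library, where a 0 in a single library allows up to 1.02 to 5.95 CPM. In water homogenates it had 4.16 ± 1.32 CPM (SD, n = 12), the values that chose it, so no fold is read from them. In ethanol mice it had 0, 0.762 and 2.23 CPM in the isolated libraries and 2.45, 4.02 and 5.12 CPM in the homogenates, a log2 fold change of -2.49 ± 0.38 (SE, edgeR FDR 9.31e-07). It was named after its values were seen.

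**Figure D4:**
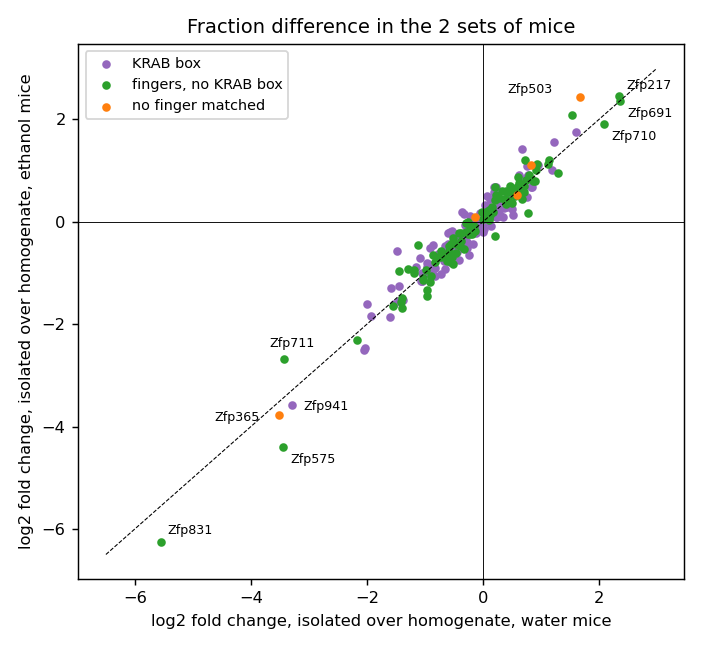
Log2 fold change of each Zfp gene, isolated fraction over homogenate, in water mice (horizontal axis) and ethanol mice (vertical axis); points are genes, coloured by class, and the dashed line marks equal changes. Zfp599, at 0 in all water isolated libraries, is not drawn. Nor are Zfp618, which was not tested, and Zfp191, Zfp783 and Zfp939, which have no class. Zfp831 lies lowest, at -5.56 and -6.25, and Zfp217 lies highest on the vertical axis at 2.46.

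Whether 72 days of ethanol access changed these genes in the isolated fraction was tested in 198 of the 250, since 52 were too low in those libraries. No gene was higher and none lower at an edgeR FDR under 0.05, beside 0.0% of all 11122 genes tested in each direction, and DESeq2 also called none of the Zfp genes (12 higher and 2 lower of 18257 over all). At an unadjusted p under 0.05 there were 8 (4.04%), beside 5.39% of all genes. Zfp503 had the lowest p, with 16.1, 23.2 and 29.1 CPM in ethanol mice and 8.30, 15.01 and 23.5 CPM in water mice, a log2 fold change of 0.51 ± 0.16 (SE, unadjusted p 0.00333, edgeR FDR 0.502). In 10 of 10 ethanol libraries it lay above the mean of the water libraries, and the groups overlapped. Zfp568 had 11.4, 22.1 and 28.4 CPM in ethanol mice and 4.36, 13.4 and 22.2 CPM in water mice, a log2 fold change of 0.57 ± 0.21 (SE, unadjusted p 0.0100, edgeR FDR 0.691), Zfp830 had 0.47 ± 0.19 (SE, unadjusted p 0.0193, edgeR FDR 0.815) and Zfp821 had 0.41 ± 0.17 (SE, unadjusted p 0.0196, edgeR FDR 0.818). On the lower side Zfp395 had 25.5, 39.01 and 55.7 CPM in ethanol mice and 38.8, 48.6 and 61.4 CPM in water mice, a log2 fold change of -0.30 ± 0.13 (SE, unadjusted p 0.0308, edgeR FDR 0.870). Zfp449 had -0.58 ± 0.29 (SE, unadjusted p 0.0527, edgeR FDR 0.920), Zfp961 -0.49 ± 0.25 (SE, unadjusted p 0.0615, edgeR FDR 0.957) and Zfp827 -0.29 ± 0.15 (SE, unadjusted p 0.0626, edgeR FDR 0.957). Ethanol libraries lay below the mean of the water libraries in 8 of 10 for Zfp395, 8 for Zfp449, 9 for Zfp961 and 9 for Zfp827. For Zfp827 that mean included water mouse 68 at 67.84 CPM, with the next library at 45.6. These genes, like Zfp503, were picked by p in the same libraries, so such counts of libraries add no support. Marker lists moved between these groups too. The median log2 fold change was 0.52 over the 10 mural markers (1712 to 3419 CPM summed in ethanol mice, 1250.3 to 2248 in water mice), -0.39 over 18 tested neuron markers (607 to 1677 and 615 to 2492 CPM) and -0.26 over the 20 astrocyte markers (11184 to 20774 and 11788 to 33627 CPM). No marker gene was called, no marker was at 0 in a whole group, and the part of the mural and astrocyte lists in the values above was not tested. With covariates for endothelial, microglia, oligodendrocyte and neuron markers the log2 fold change was 0.43 for Zfp503 and 0.61 for Zfp568, and no Zfp gene was called. These p-values missed the adjusted threshold, which does not show that the groups are alike. The 95% intervals had a median width of ± 0.33 on the log2 scale. Those of 195 of 198 genes (98.5%) lay within a 2-fold change in either direction, beside 97.9% of all 11122 genes tested. The intervals were derived from the edgeR F statistic and can be too narrow. Zfp319 had 0.09 ± 0.11 (SE) but an edgeR unadjusted p of 0.931, larger than its interval implies.

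**Figure D5:**
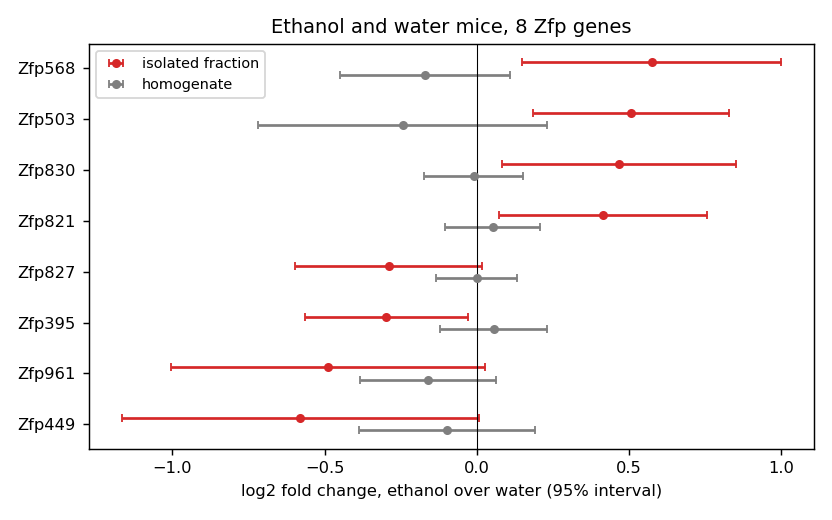
Log2 fold change of ethanol over water mice with its 95% interval (horizontal axis) for the 4 genes of lowest unadjusted p in each direction in the isolated fraction (vertical axis), in the isolated fraction and in the homogenate. No gene passed the adjusted threshold; Zfp568 lies at 0.57 isolated and -0.17 in homogenate, and Zfp449 at -0.58 and -0.10.

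In the homogenate the ethanol and water mice were compared as a description. None of the 250 genes was called in either direction, beside 0.0% of all 13576 genes tested each way, and 11 (4.40%) had an unadjusted p under 0.05, beside 3.44% of all genes. The log2 fold change was -0.24 ± 0.23 for Zfp503, -0.17 ± 0.14 for Zfp568, 0.14 ± 0.15 for Zfp365 and -0.05 ± 0.14 for Zfp217. The difference of the ethanol effect between the fractions was 0.76 for Zfp503 and 0.74 for Zfp568. The edgeR fit took the fractions of a mouse as separate samples, and both values rest on the homogenates that chose the genes. In that fit 0 of 250 Zfp genes were called, beside 0 of all 14087 genes tested. At an unadjusted p under 0.05 there were 18 (7.2%), beside 5.92% of all genes.

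Libraries of one group varied most in the isolated fraction. Over 247 of the genes, those averaging 20 or more counts in ethanol homogenates, the median coefficient of variation of CPM was 30.4% in water isolated libraries, 23.5% in ethanol isolated libraries, 16.9% in water homogenates and 13.6% in ethanol homogenates, in an order opposite to that of the median library totals. A few genes varied well beyond that among homogenates and were chosen after their values were seen. Zfp521 ranged from 10.6 to 77.1 CPM among ethanol homogenates, a coefficient of variation of 83.9%, and from 9.56 to 24.2 CPM among water homogenates. Zfp423 ranged from 35.01 to 92.1 CPM and was highest in the same homogenate of mouse 62. Zfp536 ranged from 14.8 to 71.005 CPM among water homogenates, a coefficient of variation of 55.3%.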

How the data were processed

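The authors deposited whole-number read counts for 24421 gene symbols in each of 44 libraries, plus 5 tally lines that name no gene, which entered neither the library totals nor any test. The tools listed in the submitters' processing notes are Bowtie2 2.2.5 with build mm10, HTSeq 0.5.3p9, Picard 1.141, cutadapt 1.8, bcl2fastq 2.17 and DESeq2. No source used here gives the annotation, the strand setting or how duplicate reads were treated. The labels list 45 samples; the isolated fraction of water mouse 72 was not analysed here. Reads not aligned made up 37.4% to 90.3% of isolated libraries and 18.0% to 55.2% of homogenates. Replicates within a group correlated at 0.955 to 0.996 (Pearson, log2 CPM), and each library of a group comes from its own mouse.

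Counts were tested with edgeR 4.0.16 in R 4.3.3 by its quasi-likelihood method (TMM scaling, the edgeR expression filter by group, robust estimation) on the pair of groups compared, with Benjamini-Hochberg adjustment over all genes tested. Fold changes carry SEs and 95% intervals that include the spread between mice. DESeq2 1.42.0, other scaling, filters, thinning and leaving out libraries were alternatives. The fitting was tested on simulated data. The members and gene lists were chosen with earlier results of these data known, and no set test was run.

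Named genes were, among those called and averaging 20 or more counts, the 6 of largest change and the 6 of lowest p in each direction. Added to these were the 4 of lowest unadjusted p in each direction for ethanol, the 5 highest per kb in each ethanol fraction, the genes beside the threshold, genes of known role, up to 4 genes of each cofactor list by lowest p, 6 of the largest cluster and genes that share sequence. Fingers and KRAB boxes were read from GENCODE M21 transcripts, the KRAB box with a profile of 42 residues built from 119 genes (pyhmmer 0.12.3, E under 0.001).

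Both fractions of a mouse come from one animal per the labels' protocols. Over the 10 ethanol mice with both fractions, deviations from group means correlated at a median of 0.0748 (-0.0021 to 0.165) within a mouse and -0.0057 between mice.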

Additional observations from a re-analysis of the deposited data

Results flagged for a closer look

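In the groups of 10 isolated libraries, the values of 80 genes named here and the summed level of the 250 genes were checked for a library far from the rest by Dixon's test. Of 162 groups of values, 8 held one, and chance gives about 1 in 20. Among water isolated libraries, mouse 73 had 44.92 CPM of Zfp423 (next highest 26.16, median 23.88). Mouse 68 had 108.3 CPM of Zfp462 (next 72.14, median 56.06) and 67.84 CPM of Zfp827 (next 45.6, median 34.55). Mouse 82 had 39.73 CPM of Zfp593 (next 22.34, median 15.47). Among ethanol isolated libraries, mouse 65 had 135.4 CPM of Zfp609 (next 105.3, median 89.73). Mouse 66 had 38.89 CPM of Zfp617 (next 28.21, median 21.55) and 4.861 CPM of Zfp831 (next 1.487, median 0.8047). Mouse 76 had 12.73 CPM of Zfp960 (next 7.957, median 7.213). The homogenate groups hold 12 libraries each and were not checked this way.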

How the results depend on the processing

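Between the fractions of ethanol mice, thinning every library to the smallest total left 194 Zfp genes tested, with 38 higher and 54 lower (3557 and 3541 of 10951 over all genes), and requiring at least a 2-fold change left 17 and 36. Leaving out one library at a time gave 64 to 70 higher and 105 to 111 lower. The other counts stayed within 1.5 times the reported ones, for example 66 and 114 with DESeq2 and 81 and 96 with upper-quartile scaling. They were 58 and 97 without genes whose exons overlap another gene's, and 64 and 106 with mouse as a replicate block. That block changed no call of a gene checked singly, which were the genes named by rule for this comparison. Not checked singly were Zfp830, Zfp839, Zfp599 and the genes at chr7:24081924-25227507 other than Zfp574 and Zfp575. Nor were the cofactors named outside the rule, such as Trim28 and Setdb1. For ethanol in the isolated fraction, the count at an unadjusted p under 0.05 was 6 to 13 with one library left out (13 without the isolated library of water mouse 71) and 13 with 4 cell type lists as covariates (of 198), a fit in which 13.97% of all 11122 genes had such a p and 71 were called higher and 193 lower, and no Zfp gene passed the adjusted threshold in these fits.

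Among the genes checked singly, thinning ended the call of 11: Zfp207 (0.079), Zfp260 (-0.33), Zfp346 (-0.22), Zfp410 (0.48), Zfp574 (-0.33), Zfp593 (0.38), Zfp609 (-0.067), Zfp622 (0.31), Zfp937 (-0.78), Zfp942 (-0.46) and Zfp943 (0.27). Some of the genes checked singly were too low to be tested after thinning, so it says nothing about their calls. For ethanol in the isolated fraction thinning left 4 of the 8 named genes tested. Upper-quartile scaling ended those of Zfp574 (-0.12), Zfp609 (-0.11) and Zfp706 (-0.13) and brought 8 past the threshold, Zfp281, Zfp335, Zfp638, Zfp687, Zfp746, Zfp809, Morc2a and Pphln1 (0.18 to 0.28). DESeq2 added Zfp521 (0.47) and Zfp617 (-0.24).

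Among the genes checked singly, the sign turned only in those that were not called. With thinned libraries the log2 fold change was -0.12 for Zfp330, 0.087 for Zfp451, 0.077 for Zfp160 and 0.016 for Zfp617. With upper-quartile scaling it was 0.017 for Zfp451, 0.044 for Zfp948, 0.043 for Zfp760 and 0.022 for Zfp931. With one library left out it ranged from -0.010 to 0.15 for Zfp330, from -0.17 to 0.014 for Zfp948 and from -0.14 to 0.022 for Zfp760, and the sign turned without the isolated library of ethanol mouse 60. Thinning leaves fewer reads to test with; for the other settings the cause was not tested. The library totals of the isolated fraction limit what can be seen for ethanol: 52 of 250 genes were too low there to be tested. Leaving out genes with overlapping exons, and an unblocked fit of the mice with both fractions, were alternatives added after the data were seen.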
